A study of Mus musculus with 3 samples.

Results

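Ttr, Rbp4, Stra6, Rdh10, Aldh1a2, Crabp1, Crabp2 and Cyp26a1, 8 mouse genes that carry, take up, oxidise, bind and break down retinoids, were followed through the cell states of stem cell-derived blastoids. They are 8 of the 32285 genes in the count matrices and were matched by symbol, each to 1 gene identifier. Blastoids are aggregates of stem cells that form the lineages of a blastocyst. Mouse E14 embryonic stem cells labelled Nr1h2-activated (NrESCs) were grown in serum-containing medium with 10 µM T0901317, a synthetic agonist of liver X receptors, and 1000 U/mL LIF. Aggregates of 5 cells per microwell were seeded in 2 µM Y-27632, 3 µM CHIR99021, 12.5 ng/mL rhFGF4 and 0.5 µg/mL heparin. After the first day the medium held rhFGF4, heparin, CHIR99021, 5 ng/mL BMP4 and 0.5 µM A83-01. Blastoids were picked by hand on day 5 and digested for 30 min, and 1 library of single cells was made for each of Type_I, Type_II and Type_III (called Type I, II and III here). The labels do not say how the types differ, all 3 libraries come from T0901317-treated cells of 1 line, and nothing says that they are separate cultures.

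Vitamin A circulates as retinol bound to retinol-binding protein Rbp4, which is held in the blood by transthyretin, Ttr, also a carrier of thyroid hormone. Stra6 is the membrane receptor that takes retinol from Rbp4, Rdh10 oxidises retinol to retinaldehyde, and Aldh1a2 oxidises retinaldehyde to retinoic acid. Crabp1 and Crabp2 bind retinoic acid inside the cell, and Cyp26a1, a cytochrome P450, breaks it down. In the mouse embryo the visceral endoderm, which arises from the primitive endoderm, secretes carriers such as Rbp4 and Ttr to the tissues it surrounds.

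The retinoic acid response element of the Cyp26a1 promoter is shown because Cyp26a1, together with Rarb, is a classical target of retinoic acid receptors. Promoter windows from RefSeq (build GRCm38.p6) were searched for 5 of the 8 genes: Rbp4, Stra6, Crabp1, Aldh1a2 and Cyp26a1. The 250 bases before each start were read on both strands for the DR5 retinoic acid response element, a direct repeat of the receptors' half-site with 5 bases between the copies. Capitals mark the element, and each line is given on the gene's own strand:
Cyp26a1, chr19:37697770-37697798, plus strand: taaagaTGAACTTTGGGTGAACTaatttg
Rarb, chr14:16575507-16575535, minus strand: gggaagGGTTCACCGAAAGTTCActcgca

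The Cyp26a1 element reads on the reverse strand and ends 15 bases before the RefSeq start. The element was found in 29 of 32851 windows of the same length (0.0883%), which belong to 28 genes. None of the searched windows of Rbp4, Stra6, Crabp1 and Aldh1a2 held it. A match describes letters in a window, not binding. On build mm10 the Cyp26a1 gene lies on chromosome 19 from 37697798 to 37701536 and Rbp4, on the opposite strand, from 38116629 to 38125281, with 415.1 kb and 3 protein-coding genes between them. Crabp1 (54764748 to 54773110), Stra6 (58063788 to 58153996) and Aldh1a2 (71215789 to 71296243) share chromosome 9. Ttr lies on chromosome 18 from 20665280 to 20674321, Rdh10 on chromosome 1 from 16105774 to 16133734 and Crabp2 on chromosome 3 from 87948666 to 87953376.

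Cell states were set by 7 genes, none of them a retinoid gene, in barcodes with at least 10000 UMIs (unique molecular identifiers, 1 per captured transcript) and at most 20% mitochondrial UMIs. A barcode with Gata6, Sox17 and Gata4 summing to at least 100 CPM (UMIs scaled to a fixed total) was called primitive endoderm (PrE). Of the rest, Krt8, Krt18 and Krt19 summing to at least 800 CPM gave trophectoderm (TE), and then Pou5f1 of at least 150 CPM gave epiblast (EPI). The 3 libraries held 25443474 to 106445641 UMIs in 2310 to 9265 barcodes. Of these, 1405, 1992 and 272 barcodes of Type I, II and III were used, with 82.2% to 86.9% of the UMIs. PrE had 673, 877 and 63 barcodes, TE 242, 330 and 72, EPI 351, 587 and 121, and no state 139, 198 and 16. Median UMIs per barcode were 39721 to 86673 in PrE, 40812.5 to 81527 in TE and 46735 to 59991 in EPI. Libraries shared 151 to 209 barcode sequences, of which 1 was among the used barcodes of both Type I and Type II.

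The state names were checked against markers that did not set the states. All 7 such primitive endoderm markers were highest in PrE and all 6 epiblast markers highest in EPI in each library. Of 6 trophectoderm markers, 4, 4 and 5 were highest in TE in Type I, II and III. Cdx2, a trophectoderm transcription factor, had 15.3, 10.4 and 4.56 CPM in PrE against 13.4, 8.39 and 4.82 in TE. Eomes, another, was lowest in TE, with 2.56, 2.55 and 1.77 CPM against 6.94, 7.02 and 8.46 in PrE. Elf5, a defining trophoblast transcription factor, was at most 0.872 CPM in any state, so the name TE rests mainly on the keratins, Gata2, Gata3 and Tfap2c. A threshold gives a range rather than a type: 57, 110 and 6 PrE barcodes lay within 50 CPM of the PrE threshold. Of the PrE barcodes, 486, 624 and 33 also met the keratin threshold, and the median keratin sum in PrE was 1288, 1242 and 882 CPM. The Pou5f1 threshold was also met by 50, 73 and 17 PrE barcodes of Type I, II and III. Pou5f1 summed over PrE was 28.5, 35.6 and 99.2 CPM. No doublet caller was run, and leaving out the barcodes that met more than 1 threshold was 1 of the alternatives.

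Within each library PrE held the highest levels of both carriers, of Stra6, of Rdh10 and of Cyp26a1, while Crabp1 was highest in EPI among the named states and Crabp2 highest in TE. PrE barcodes held 88.3% of all Ttr UMIs of the used barcodes, 89.9% of Rbp4, 82.8% of Rdh10, 82.6% of Stra6 and 95.1% of Cyp26a1, but 8.15% of Crabp1 and 20.9% of Crabp2. UMIs summed per library and state, 9 sums in all, were compared with edgeR's quasi-likelihood test with library as a block, so the 3 libraries stand in as replicates although they are different types. Of the 8 genes, 7 passed the low-count filter and were tested, and Aldh1a2 did not. In PrE over EPI 5 rose and 2 fell, where 74.3% of all 13502 tested genes were called at an adjusted p under 0.05 (38.2% higher and 36.1% lower). In PrE over TE 5 were higher and 2 lower, beside 60.7% of all genes (30.9% higher and 29.8% lower). In TE over EPI 5 were higher and 1 lower, beside 59.1% of all genes (30.8% higher and 28.3% lower). With so many genes called, a count of calls does not set the retinoid genes apart, and the sizes of their differences are given below.

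**Figure D1:**
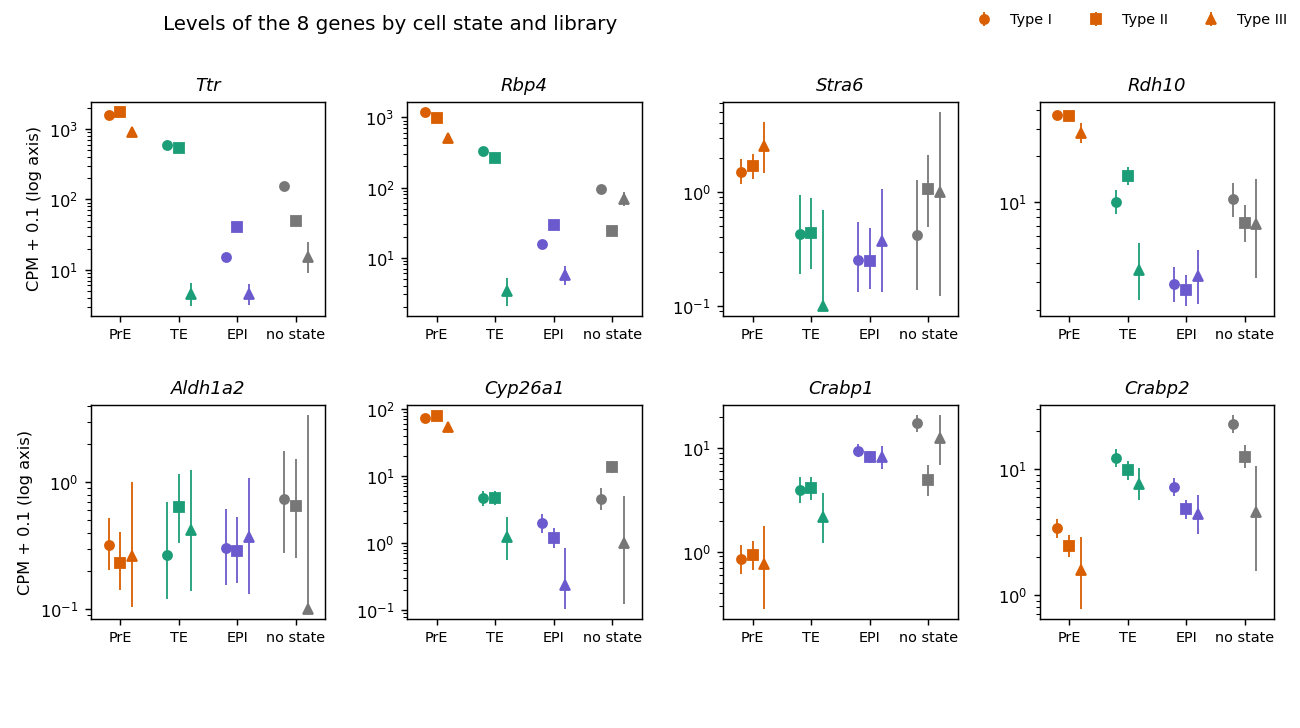
Level of each gene in CPM plus 0.1 (log axis) in the 4 sets of barcodes, with circles for Type I, squares for Type II and triangles for Type III; bars are exact 95% Poisson intervals of the summed UMIs. Ttr, Rbp4, Stra6, Rdh10 and Cyp26a1 are highest in PrE in all 3 libraries, Crabp1 is lowest there, and Aldh1a2 stays under 1 CPM everywhere.

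**Figure D2:**
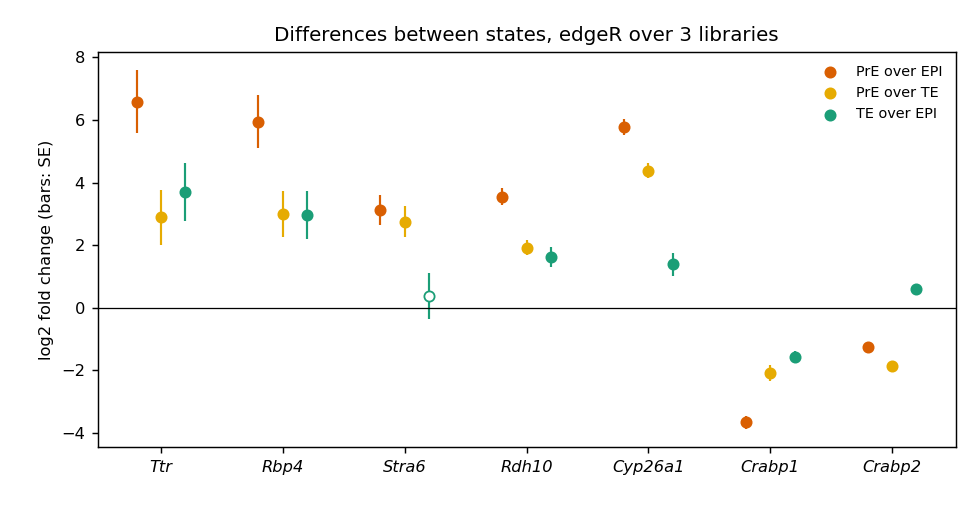
Log2 fold change between states (y axis) from edgeR over 3 libraries for the 7 genes tested; bars are standard errors and filled points passed an adjusted p of 0.05. The open point is Stra6 in TE over EPI, the single comparison of the 21 that did not pass.

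Ttr stood at 1559, 1748 and 891 CPM in PrE of Type I, II and III (mean 1399 ± 450, SD, n = 3 libraries). In TE it was 592, 542 and 4.50 CPM (379 ± 326), and in EPI 15.1, 40.1 and 4.44 CPM (19.9 ± 18.3). PrE lay above the other states in each library, whereas TE lay above EPI in Types I and II and level with it in Type III. Over EPI, PrE was higher by a log2 fold change of 6.59 (SE 1.01, edgeR adjusted p = 0.000185), which was 4.93 without barcodes meeting more than 1 threshold and 7.54 without Type II. Over TE the log2 fold change was 2.89 (SE 0.88, edgeR adjusted p = 0.0165), and for TE over EPI it was 3.70.

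Rbp4 followed the same order, with 1197, 973 and 500.1 CPM in PrE (mean 890.1 ± 356, SD, n = 3 libraries). TE had 335, 260.2 and 3.21 CPM and EPI 15.6, 29.3 and 5.52 CPM. The groups do not overlap between PrE and EPI, and in Type III the TE and EPI values had overlapping counting intervals. The log2 fold change of PrE was 5.94 over EPI (SE 0.837, edgeR adjusted p = 0.000104) and 2.98 over TE (SE 0.731, edgeR adjusted p = 0.00537). Over EPI it was 3.52 without barcodes meeting more than 1 threshold and 6.60 without Type II, both past the test.

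The PrE over TE calls of both carriers were lost under several alternatives. With PrE set at 200 CPM the log2 fold changes fell to 0.56 for Ttr and 1.35 for Rbp4, and without barcodes that met more than 1 threshold they were 1.27 and 0.55, none of them past the test. Leaving out the block gave 1.99 and 2.26, and leaving out Type II gave 3.68 for Ttr, also not past it. Over all 14 alternatives the adjusted p of Ttr for PrE over TE ran from 4.05e-08 to 0.218 and that of Rbp4 from 1.94e-10 to 0.362. Just below the PrE threshold, at 50 to under 100 CPM, barcodes of Type I, II and III had Ttr at 2088, 1760 and 29.9 CPM. Just above it, at 100 to under 150 CPM, they had 2314, 2051 and 4.03 CPM, so both sides of the threshold carried Ttr in Types I and II.

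Most TE Ttr came from few barcodes that also expressed apolipoprotein genes of the visceral endoderm. Splitting each state at 500 CPM of Apob, Apoa1 and Apoc2 together, a division chosen after the data were seen, put 26 of the 242 TE barcodes of Type I and 46 of the 330 of Type II above it, and none of Type III. These held 91.3% and 92.4% of the TE Ttr UMIs, at 5373 and 4299 CPM against 57.0 and 46.6 CPM in the remaining TE barcodes. They held 78.3% and 87.0% of the TE Rbp4 UMIs. Their Gata2, a trophoblast transcription factor, was 2.46 and 1.73 CPM against 269.8 and 236 CPM in the rest, and their Dab2, an endocytic adaptor of primitive endoderm, was 950.3 and 1166 CPM against 75.8 and 45.2 CPM. With such barcodes left out of TE and EPI but kept in PrE, the log2 fold change of PrE over TE was 5.63 for Ttr and 4.85 for Rbp4. The direction of that shift is fixed by the choice, since the barcodes left out were picked by genes that include Apoc2, one of the genes nearest in level to both carriers. TE over EPI was then 0.86 for Ttr (edgeR adjusted p = 0.0696, range over the alternatives 3.94e-10 to 0.0752) and 1.11 for Rbp4, which still passed the test.

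**Figure D3:**
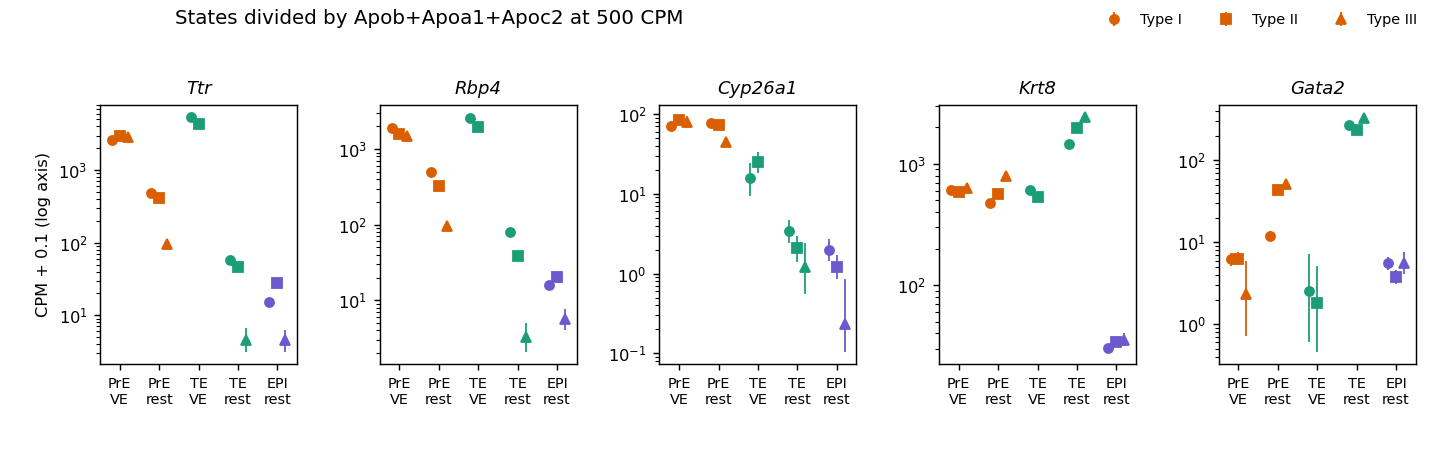
CPM plus 0.1 (log axis) of Ttr, Rbp4, Cyp26a1, Krt8 and Gata2 in PrE, TE and EPI, each divided at 500 CPM of Apob, Apoa1 and Apoc2 together (VE, at or above; rest, below); symbols mark the libraries and bars are exact 95% Poisson intervals. The TE barcodes above the division have Ttr of 5373 and 4299 CPM in Types I and II and Gata2 of 2.46 and 1.73 CPM, while Type III has no such TE barcodes; the 4 such EPI barcodes of Type II are not drawn.

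To compare shares of barcodes with a UMI at equal depth, each barcode was thinned to 10000 UMIs. Free RNA in a droplet library can put UMIs of abundant genes into cells that do not express them, and thinning does not remove it, so the EPI share is given beside that of PrE. Ttr was then seen in 80.5%, 77.9% and 52.4% of PrE barcodes (exact 95% intervals 77.3% to 83.5%, 75.0% to 80.6% and 39.4% to 65.1%). The same share was 16.0%, 20.8% and 8.26% in EPI, where its level is low, and unthinned it was 92.7%, 87.7% and 73.0% in PrE and 48.4%, 57.6% and 23.1% in EPI. Rbp4 was seen in 77.3%, 73.9% and 46.0% of thinned PrE barcodes and in 15.4%, 19.9% and 3.31% of EPI barcodes. The ratio of Ttr to Rbp4 UMIs was 1.30, 1.80 and 1.78 in PrE and 0.964, 1.37 and 0.805 in EPI, with intervals that do not overlap within any library. Intervals cover counting error only, and the part of free RNA in the EPI values was not tested.

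Within PrE the carriers were unevenly spread. The tenth of PrE barcodes with the most Ttr held 47.7%, 49.4% and 72.8% of its UMIs, and the median barcode had 751, 810 and 61.6 CPM. Both carriers were seen together in 70.7%, 65.3% and 36.5% of thinned PrE barcodes. The Spearman correlation between them over PrE barcodes was 0.72, 0.72 and 0.73 (673, 877 and 63 barcodes of 1 library each, which share depth). This is a description of barcodes, not of replicates.

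PrE barcodes were ordered in each library by the sum of 7 genes of visceral endoderm, namely Apob, Apoa1, Apoc2, Cubn, Amn, Dab2 and Lrp2, and divided into groups of near-equal size. From the lowest to the middle and the highest group, Ttr ran from 657 to 1248 and 2652 CPM in Type I, from 623 to 1289 and 3262 CPM in Type II, and from 29.7 to 455 and 1833 CPM in Type III. Rbp4 ran from 838 to 1707, from 634 to 1581 and from 112 to 701 CPM between the lowest and highest groups. Both carriers therefore were highest in each library in the group with the highest sum of these 7 genes. The sum includes Apoc2, one of the genes nearest in level to both carriers, so this direction is partly fixed by the choice. It also includes Cubn and Dab2, which were used as markers to check PrE. Rdh10 moved less in Types I and II, from 32.4 to 43.0 and from 33.6 to 41.5 CPM, and from 6.37 to 38.7 CPM in Type III. Cyp26a1 stood at 66.7, 82.6 and 71.4 CPM in Type I and at 66.9, 84.3 and 84.5 CPM in Type II, and at 14.2, 48.0 and 83.6 CPM in Type III. Stra6 ran the other way at a low level, with 2.15, 1.40 and 0.773 CPM in Type I, 3.09, 1.15 and 0.611 in Type II and 3.54, 3.82 and 0.42 in Type III. The groups of Type III hold 21 barcodes each.

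**Figure D4:**
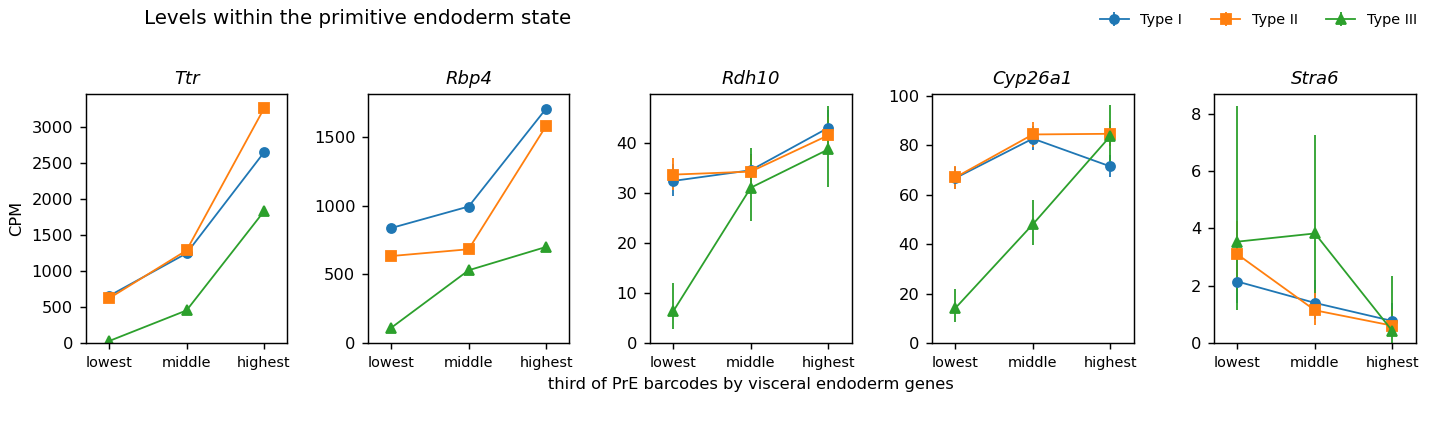
CPM of Ttr, Rbp4, Rdh10, Cyp26a1 and Stra6 (y axis, linear) in PrE barcodes divided into lowest, middle and highest groups by 7 visceral endoderm genes (x axis), 1 line per library; bars are exact 95% Poisson intervals. Ttr reaches 2652, 3262 and 1833 CPM in the highest groups of Type I, II and III, while Cyp26a1 stays between 66.7 and 84.5 CPM in Types I and II, with its lowest values in the lowest groups.

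With 1 library for each type, types were compared by size alone: a difference was named at 2-fold or more, with 10 CPM added, where 1 of the libraries had at least 50 CPM. Within PrE, Rbp4 was lower in Type III than in Type I, by a log2 ratio of -1.24, where 0.282% of 2835 genes were named lower. Ttr in PrE of Type III had log2 ratios of -0.80 to Type I and -0.96 to Type II, and Rbp4 -0.95 to Type II, none of them named, beside 0.141% of genes named lower against Type II. Without PrE barcodes that met more than 1 threshold, which leaves 15 in Type III, Ttr had log2 ratios of -2.64 to Type I and -2.25 to Type II, and Rbp4 -2.91 and -2.84, all past the 2-fold size. The share of all genes past that size without those barcodes was not counted. In the PrE barcodes with at least 500 CPM of the 3 apolipoprotein genes, Ttr was 2632, 2999 and 2866 CPM in Type I, II and III. These barcodes made up 47.3%, 49.9% and 30.2% of PrE, and the remaining PrE barcodes had Ttr of 485, 410.2 and 96.9 CPM. Rbp4 was 1895, 1582 and 1507 CPM above the division and 498, 322 and 95.3 CPM below it. The division was chosen after the data were seen and includes Apoc2, so higher carriers above it are partly fixed by the choice. Whether the share of such barcodes accounts for the lower carriers of Type III was not tested. Within TE, Ttr of Type III was lower than in Type I and Type II by log2 ratios of -5.38 and -5.25, and Rbp4 by -4.71 and -4.35, beside 0.943% and 1.25% of genes named lower. No gene of the 8 was named between Types II and I within PrE, TE or EPI (0%, 0.144% and 0% of all genes named), or between Type III and the others within EPI (0.214% and 0.257%).

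Stra6, the Rbp4 receptor, was detected at 1.41, 1.59 and 2.44 CPM in PrE. TE had 0.33, 0.335 and 0 CPM, the last of which allows up to 0.482 CPM, and EPI had 0.153, 0.148 and 0.269 CPM. PrE lay above both other states in each library. The log2 fold change was 3.11 over EPI (SE 0.484, edgeR adjusted p = 0.000206) and 2.75 over TE (edgeR adjusted p = 0.000826). Stra6 had 161 UMIs in all used barcodes and passed the low-count filter through its PrE sums alone, so a tested Stra6 had to differ and its call carries little beyond its level. It did not pass that filter, and was not tested, without barcodes meeting more than 1 threshold or after thinning.

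Rdh10, which makes retinaldehyde from retinol, stood at 36.8, 36.5 and 28.3 CPM in PrE (mean 33.9 ± 4.83, SD, n = 3 libraries). TE had 9.98, 14.7 and 3.53 CPM and EPI 2.85, 2.59 and 3.23 CPM, so PrE did not overlap with either, and TE and EPI came close in Type III. The log2 fold change of PrE was 3.55 over EPI (SE 0.272, edgeR adjusted p = 1.38e-06) and 1.92 over TE (SE 0.234, edgeR adjusted p = 6.60e-05). Without barcodes meeting more than 1 threshold these were 2.66 and 1.09, both past the test. Thinned to 10000 UMIs, Rdh10 was seen in 25.9%, 26.0% and 27.0% of PrE barcodes and in 3.13%, 1.87% and 5.79% of EPI barcodes. The PrE share was 16.8%, 17.8% and 13.3% without barcodes meeting more than 1 threshold.

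Aldh1a2, the next enzyme and the one that makes retinoic acid, was near the limit of detection. It had 46 UMIs in 45 of the 3669 used barcodes and 0.537 CPM at most in the 9 sums. Tested without the low-count filter, its log2 fold changes were -0.25 for PrE over EPI, -0.77 for PrE over TE and 0.52 for TE over EPI, and none passed (edgeR adjusted p = 0.835, 0.523 and 0.692). The other retinaldehyde dehydrogenases listed, Aldh1a1, Aldh1a3 and Aldh8a1, did not pass the filter either and reached 0.124, 1.08 and 1.01 CPM at most. No state can therefore be ranked for the retinoic acid-making step at this depth.

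Cyp26a1, which breaks retinoic acid down, was at 73.7, 78.8 and 54.0 CPM in PrE (mean 68.8 ± 13.1, SD, n = 3 libraries). TE had 4.54, 4.63 and 1.12 CPM and EPI 1.88, 1.11 and 0.135 CPM. PrE was 16.2-fold, 17.0-fold and 48.1-fold above TE, without overlap. The log2 fold change of PrE was 5.77 over EPI (SE 0.253, edgeR adjusted p = 4.56e-08) and 4.38 over TE (SE 0.225, edgeR adjusted p = 5.14e-07). Both calls held under all 14 alternatives, but the size over TE did not: it was 2.71 with PrE set at 200 CPM, 3.78 without barcodes meeting more than 1 threshold and 5.15 without the apolipoprotein-rich TE and EPI barcodes. Those barcodes held 34.5% and 62.3% of the TE Cyp26a1 UMIs in Types I and II. The related enzymes Cyp26b1 and Cyp26c1 did not pass the filter and reached 1.61 and 0.026 CPM at most.

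Cyp26a1 in TE over EPI had a log2 fold change of 1.39 (edgeR adjusted p = 0.00825). It was 0.59 without the TE and EPI barcodes rich in apolipoprotein transcripts and 1.03 without Type II, neither past the test, and 2.88 with PrE set at 200 CPM. Thinned, Cyp26a1 was seen in 34.6%, 36.9% and 41.3% of PrE barcodes and in 0.855%, 1.36% and 0% of EPI barcodes, the last allowing up to 2.48%. Over PrE barcodes its Spearman correlations to Ttr were 0.05, 0.09 and 0.44 in Type I, II and III. Rdh10 and Cyp26a1 were seen together in 9.96%, 11.2% and 15.9% of thinned PrE barcodes, with correlations of 0.06, 0.07 and 0.27.

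Crabp1, an intracellular carrier of retinoic acid, ran opposite to the secreted carriers, with 9.41, 8.16 and 8.21 CPM in EPI (mean 8.60 ± 0.708, SD, n = 3 libraries). TE had 3.88, 4.03 and 2.09 CPM and PrE 0.744, 0.832 and 0.651 CPM, and no state overlapped with another. The log2 fold change of PrE over EPI was -3.66 (SE 0.217, edgeR adjusted p = 2.54e-07). That of PrE over TE was -2.08 and that of TE over EPI -1.58, and all 3 calls held under the 14 alternatives. Barcodes of no state had Crabp1 of 17.4, 4.85 and 12.5 CPM, with EPI inside that range.

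Crabp2, which delivers retinoic acid to its nuclear receptors, was highest in TE of the 3 states, with 12.1, 9.66 and 7.55 CPM. EPI had 7.07, 4.69 and 4.31 CPM and PrE 3.27, 2.34 and 1.46 CPM, in the same order in each library. PrE was lower than TE by a log2 fold change of -1.86 (SE 0.146, edgeR adjusted p = 3.89e-06) and lower than EPI by -1.25 (SE 0.148, edgeR adjusted p = 3.01e-05). TE over EPI was 0.61 (edgeR adjusted p = 0.00359), which did not pass without Type I (0.64), without Type II (0.49) or without the block (0.58). Barcodes of no state had 22.7, 12.5 and 4.47 CPM.

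Some calls of TE over EPI were lost when Type I was left out and most when Type II was, and fewer libraries carry less information by construction. Without Type I, Ttr (2.67) and Rbp4 (2.04) also no longer passed, and without Type II, Ttr (3.85), Rbp4 (2.94) and Rdh10 (0.99) did not. With all 3 libraries Ttr was 3.70, Rbp4 2.96 and Rdh10 1.62. Without Type II the sizes of Ttr and Rbp4 thus changed little, while the SE of Ttr went from 0.92 to 1.38. TMM scaling shifted the log2 ratios of TE over EPI by -0.29 against plain totals, those of PrE over EPI by -0.14 and those of PrE over TE by 0.15. The direction of each of the 21 comparisons was the same under plain totals and DESeq2 size factors. Over all genes the TE over EPI calls were 4154 higher and 3825 lower, and with plain totals 6358 higher and 2216 lower.

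Beyond the 8 genes, 70 genes of retinoid and thyroid hormone handling were listed and 43 of them tested. In PrE over EPI 19 rose, 15 fell and 9 did not pass, where 38.2% of all genes were higher and 36.1% lower, and the median log2 fold change was 0.30 beside 0.03 over all genes. In PrE over TE 13 were higher and 15 lower, beside 30.9% and 29.8% of all genes (median 0.24 beside 0.00). In TE over EPI 19 were higher and 12 lower, beside 30.8% and 28.3% (median 0.11 beside 0.02). Whether these counts differ from the shares over all genes was not tested.

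For retinol uptake and storage 7 of 9 genes were tested, of which 3 rose and 2 fell in PrE over EPI, beside 74.3% of all genes called in either direction, and 4 were higher and 1 lower in PrE over TE, beside 60.7%. The risers over EPI encode the endocytic receptors that take up Rbp4 and other carriers: Lrp2 (megalin), Cubn (cubilin) and Amn (amnionless, its membrane anchor). Lrp2 was at 239, 293 and 416 CPM in PrE, 42.9, 66.8 and 53.5 in TE and 12.6, 19.3 and 8.62 in EPI. Cubn and Amn rose by log2 fold changes of 6.71 and 6.69, and Lrp2 by 4.34, in PrE over EPI, and Cubn is also one of the markers used to check PrE.

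Among enzymes that oxidise or reduce retinol and retinaldehyde 9 of 18 were tested, of which 3 rose and 1 fell in PrE over EPI and 5 did not pass, beside 74.3% of all genes called. In PrE over TE 4 were higher and 1 lower, beside 60.7%. Rdh11, a retinaldehyde reductase, rose by a log2 fold change of 2.31, with 45.1, 53.6 and 48.6 CPM in PrE and 8.55, 10.8 and 7.14 in EPI. Akr1b3, aldose reductase, fell by 2.36 on the log2 scale, with 35.8, 32.5 and 37.9 CPM in PrE and 160, 168 and 165 in EPI. Fabp5, a fatty acid-binding protein that also binds retinoic acid, fell by 2.30, from 92.5, 101 and 78.5 CPM in EPI to 24.9, 20.4 and 15.8 in PrE, while TE held 95.1, 110.2 and 62.0.

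Of 7 listed nuclear receptors 5 were tested, and 3 rose and 2 fell in PrE over EPI (74.3% of all genes called), while 1 was higher and 3 lower in PrE over TE (60.7% called). Rarg, retinoic acid receptor gamma, fell by 4.15 on the log2 scale, from 35.9, 37.9 and 42.7 CPM in EPI and 11.1, 13.8 and 22.0 in TE to 2.01, 2.29 and 3.25 in PrE. Rarb, whose promoter element is printed above, was at most 0.482 CPM in any state. Of 12 listed retinoic acid target genes, 9 were tested. In PrE over EPI 6 rose and 3 fell, beside 38.2% and 36.1% of all genes. In PrE over TE 2 were higher and 4 lower, beside 30.9% and 29.8%. Among the fallers over EPI, Stra8 had 1.32, 1.55 and 1.48 CPM in EPI, at most 0.163 CPM in PrE and 0 in TE. It passed the low-count filter through its EPI sums alone, so a tested Stra8 had to fall. Cdx1, another faller, had 1.83, 1.51 and 1.35 CPM in EPI, at most 0.325 CPM in PrE and 0.412, 1.68 and 0.321 CPM in TE. Without its EPI sums it would not have passed that filter either, so its fall carries little beyond its level. The tally of fallers includes both Stra8 and Cdx1. Among regulators of the receptors, 3 of 6 rose and 2 fell in PrE over EPI, beside 74.3% of all genes called. In PrE over TE 1 was higher and 3 lower, beside 60.7%. Nrip1, a corepressor, had 38.0, 40.2 and 40.3 CPM in PrE, 66.5, 66.2 and 65.4 in TE and 13.0, 12.7 and 11.4 in EPI.

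Ttr also carries thyroid hormone, and 7 of 13 listed genes of thyroid hormone handling were tested, of which 2 rose and 4 fell in PrE over EPI (38.2% and 36.1% of all genes), and 2 were higher and 3 lower in PrE over TE (30.9% and 29.8%). The risers over EPI were the transporters Slc7a8, by a log2 fold change of 5.19, and Slc16a10, by 2.14. Slc7a8 was at 17.2, 22.2 and 16.9 CPM in PrE and at most 0.665 CPM in EPI. Slc7a5, an amino acid transporter that also carries thyroid hormone, fell by 1.00 on the log2 scale.

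The genes whose levels were most like those of each of the 7 over the 9 sums were found by Pearson's r of log2(CPM + 10), among genes with at least 50 CPM in 1 sum. The sums share 3 libraries and 3 states, so r is high by the state differences alone. Nearest to Ttr were Apoa2 (r = 0.996), Rbp4 (0.996) and Apoc2 (0.995), and nearest to Rbp4 were Spink1, Apoc2 and Ttr (0.996 to 0.997). Cyp26a1 was nearest to Dennd5b (0.999), Plod2 (0.996) and Slc12a2 (0.995), and Rdh10 to Npc2, Pla2g12b and Tpcn1 (0.994 to 0.995). Stra6 was nearest to Eva1a, Tfec and Acly, Crabp1 to Pam16, Npm1 and Pfdn6, and Crabp2 to Pnn, Cdc26 and Cggbp1. Over the same sums Cyp26a1 had r of 0.82 with Ttr, 0.85 with Rbp4, 0.96 with Rdh10 and 0.92 with Stra6. With Crabp1 and Crabp2 its r was -0.81 and -0.69.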

How the data were processed

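Single-cell UMI counts per gene and barcode were deposited by the authors as 1 matrix for each of 3 libraries. Per the file headers the counting tool was Cell Ranger 6.0.1, and per the submitters' processing notes the build was mm10. The annotation and how barcodes were called as cells are not given in the sources used here. The kit counts transcripts at their 3' ends, so levels are compared between states and not between genes. Counts were summed per library and state and tested with edgeR 4.0.16 in R 4.3.3 (TMM, filterByExpr, quasi-likelihood, library block, Benjamini-Hochberg adjustment over 13502 genes at 0.05; common dispersion 0.0087). CPM are counts scaled to the UMI total of the same sum, with exact 95% Poisson intervals, and a count of 0 allows up to 3 counts. Alternatives were a minimum of 20000 UMIs, at most 10% mitochondrial UMIs, PrE at 200 CPM, barcodes meeting 1 threshold only, thinning to 10000 UMIs, plain totals, DESeq2 1.42.0 (size factors and test), no low-count filter, no block and leaving out each library; leaving out apolipoprotein-rich TE and EPI barcodes was chosen after seeing the data. Named genes are the 8 genes, the 3 nearest genes of each, and up to 4 called genes of each pathway list and comparison with at least 20 CPM by size of change, of which some are not reported here. The members and lists were chosen with earlier results of these data known. With library as a block, p-values measure how far the differences between states vary over 3 libraries of different types. Gene positions come from GENCODE on GRCm38, the assembly that mm10 names.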

Additional observations from a re-analysis of the deposited data

Results flagged for a closer look

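Barcodes under 10000 UMIs, left out of every comparison, still held transcripts of all 8 genes above the limit that a count of 0 allows over the 3 libraries (0.0883 CPM). Pooled over the 3 libraries they had Ttr at 622 CPM, Rbp4 at 393 CPM, Cyp26a1 at 21.1 CPM and Rdh10 at 14.5 CPM. Crabp1 stood at 3.09 CPM, Crabp2 at 3.03 CPM, Stra6 at 0.589 CPM and Aldh1a2 at 0.324 CPM. The ratio of Ttr to Rbp4 UMIs in these shallow barcodes was 1.55, 1.63 and 1.45 in Type I, II and III, against 1.30, 1.80 and 1.78 in PrE. Which cells or free RNA these UMIs come from was not tested.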

How the results depend on the processing

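Under 14 alternatives each (12 for Stra6, which was not tested after thinning or without barcodes meeting more than 1 threshold), 13 of the 21 log2 fold changes of the 7 tested genes kept their direction and their side of the test: 7 of 7 for PrE over EPI, 5 of 7 for PrE over TE (not Ttr and Rbp4) and 1 of 7 for TE over EPI (Crabp1). The tallies of PrE over EPI and PrE over TE include Stra6, which passed the low-count filter through its PrE sums alone. They therefore carry little for that gene. Stra6 in TE over EPI, not called, ran from -0.12 (without Type II) to 0.88 (without Type III) when single libraries were left out, and was 1.06 with PrE at 200 CPM. In PrE over EPI the genes called higher numbered 4, against 5, in the alternatives that did not test Stra6. Of all genes 3688 were higher there after thinning and 3972 without barcodes meeting more than 1 threshold, against 5157. In PrE over TE the retinoid genes called higher numbered 3 without the replicate block, 3 with PrE at 200 CPM and 2 without barcodes meeting more than 1 threshold, against 5. Of all genes 3824, 3378 and 3283 were higher in these settings, against 4173. In TE over EPI 3 were called higher without the apolipoprotein-rich barcodes (chosen after seeing the data), against 5. The number of all genes called there is not given beside it, so this drop cannot be judged against all genes. When single libraries were left out, 0 to 5 were called higher in TE over EPI. That 0, without Type II, comes with edgeR adjusted p-values of 0.0608 to 0.169, with 3 genes at an unadjusted p under 0.05 and 0 called by DESeq2. Of all genes, TE over EPI gave 6358 higher and 2216 lower with plain totals; thinning gave 2547 higher there, and 2734 higher and 2573 lower in PrE over TE. Leaving out single libraries gave 2543 to 4390 genes lower in PrE over TE, and 2614 to 4563 higher and 2466 to 4021 lower in TE over EPI, the lowest of each without Type II. The cause of these changes was not tested, except that thinned counts and fewer libraries carry less information by construction. Without barcodes meeting more than 1 threshold, 2 genes were named lower in PrE of Type III against Type I and 2 against Type II. That setting leaves 15 PrE barcodes in Type III. The share of all genes named lower in it was not counted, so these counts do not set the retinoid genes apart. In Type I, II and III the share of PrE barcodes with Ttr was 92.7%, 87.7% and 73.0% unthinned and 64.3%, 59.9% and 33.3% without barcodes meeting more than 1 threshold; for Rbp4 these were 90.9%, 87.5% and 81.0%, and 59.4%, 53.8% and 13.3%. No replicate numbers in the labels pair the samples; the block is the library that states share.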

Other observations

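Barcodes of no state with at least 100 CPM of T and Mixl1 together, genes of the primitive streak, numbered 16 in Type I and 36 in Type II. Their Cyp26a1 was 23.8 CPM (exact 95% interval 13.0 to 40.0) against 2.49 CPM in the other 123 barcodes of no state in Type I. In Type II it was 38.4 CPM (29.1 to 49.8) against 7.32 CPM in the other 162. Crabp1 stood at 3.40 and 2.02 CPM in these barcodes against 18.9 and 5.58 CPM in the others. Type III had 1 such barcode. Of the 3 protein-coding genes between Cyp26a1 and Rbp4, Myof had a log2 fold change of 2.69 in PrE over EPI and Cep55 of -1.42, and Ffar4 did not pass the low-count filter.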
